A study of Homo sapiens with 6 samples.

Results

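The mRNAs that encode the proteins of the large (60S) ribosomal subunit were followed through LARP1 PAR-CLIP and mRNA-seq in HEK293T cells. This established line comes from human embryonic kidney and carries the SV40 large T antigen. Their members are the transcripts with an mRNA accession whose gene name in the mRNA-seq table is one of 45 genes for 60S proteins, together with the rows of these transcripts in both lists of LARP1 binding sites. All 45 genes were found, with 74 of the 31170 mRNA transcripts of the table. The list of sites for growing cells holds 40 rows on these transcripts among 3948, and the list for PP242-treated cells holds 118 among 3947. There were 4 groups. PAR-CLIP was made once from growing HEK293T cells and once from HEK293T cells treated with the mTOR kinase inhibitor PP242 at 2.5 µM, and mRNA-seq was made in 2 libraries from each condition. Both PAR-CLIP cultures were also labeled with 100 µM 4-thiouridine for 14 hr and irradiated with 150 mJ/cm2 of ultraviolet light. Neither step is described for the mRNA-seq cultures. The time of PP242 treatment is not given in the sources used here, and the mRNA-seq libraries are numbered as replicates without saying whether each came from its own culture, so a p-value measures the spread between these libraries, which may be technical.

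The 60S subunit holds the peptidyl transferase center, which joins amino acids, and the tunnel through which the new chain leaves. Most mRNAs for its proteins start with a 5’ terminal oligopyrimidine tract (5’TOP), a cytidine followed by a run of pyrimidines, and their translation is known to fall when mTOR is inhibited. LARP1 is an RNA-binding protein with a La module and a region that binds the cap and the start of such mRNAs. In PAR-CLIP, 4-thiouridine in the RNA is crosslinked to the bound protein and is read as a T-to-C change.

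In the mRNA-seq table the 60S mRNAs took 9.85% to 10.2% of all RPKM in each of the 4 libraries. Of 5 genes that mark HEK293T cells, 3 were above 1 RPKM, among them LIN28B at a mean of 19.6 RPKM, whereas PAX2 and LHX1 were lower. Of 7 genes that mark blood, liver, endothelial or epithelial cells, 5 were in the table and none reached 1 RPKM. The number of reads was not given for any library. Since PAR-CLIP was not replicated, differences in sites between the conditions are given as values side by side, without a p-value.

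In the library from PP242-treated cells, sites in the 5’UTR of at least 1 RPM (reads of the site relative to all mapped reads) were listed on 6 genes of the 45, RPL26, RPL21, RPL32, RPL4, RPL17 and RPL13. Under growing conditions 0 of the 45 had one. Over all 17977 genes with an mRNA in the table, 0.2% had such a site after PP242 and 0.0668% under growing conditions. For 4 of the 6 genes the sequence of the site could be read, and these are shown 5’ to 3’ as the sites that are present in 1 condition only, with the longest run of C and T in capitals. The transcripts of the study’s annotation were not at hand, so each site was placed by another sequence of the gene, and the placement of RPL4 may be off by 2 nt or so. For RPL21 it was not checked that the listed transcript starts where the sequence used does, so its bases may be shifted by an unknown number.
RPL26, nt 43–66: cagcgtgtagTTCTCTTCCCTTTT
RPL21, nt 22–46: CTTCCagtaattcgccaaaatgacg
RPL32, nt 74–94: agccaTCTCCTTCTCggcatc
RPL4, nt 48–77 of the site at nt 47–77: TCTCCTCTCTCCgccatggcgtgtgctcgc

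RPL26, a protein at the rim of the exit tunnel, had the 5’UTR site with the most reads, 1485 RPM on NM_000987.3 after PP242. Read on the 96 nt 5’UTR that the study’s supplementary sequences give, the site lies on chromosome 17 at 8286500–8286523 of GRCh37, on the minus strand. It holds 75% C and T, with a run of 14. The MANE Select transcript of the gene starts at 8286511, within the site, so 12 of the 24 nt of the site are the first bases of that transcript and the other part lies upstream of it. In the longer 5’UTR the site ends 30 nt before the coding region.

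As placed here, the other sites that could be read lay at the end of the 5’UTR. For RPL4 the placement itself set this, for RPL32 it rests on the RefSeq start that was used, and for RPL21 on the MANE Select start. RPL21 carried 1272 RPM at nt 22–46 of NM_000982.3, and on the MANE Select transcript with its 5’UTR of 40 nt this window runs 6 nt into the coding region. The window is made of 2 exonic parts on chromosome 13, 27825716–27825722 and 27827902–27827919 on the plus strand. As placed, its share of C and T was 52%, the lowest of the 4. The same RPM and length are listed for the pseudogene transcript RPL21P28, so reads of the 2 genes cannot be told apart here. Its T-to-C value, a column described with the other properties of the sites, reached 72.1% of the usual multiple.

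RPL32 carried 921 RPM at nt 74–94 of NM_000994.3. A RefSeq start of the gene gives a 5’UTR of 94 nt, in which the site is the last stretch before the start codon, and 71.4% of its bases were C or T. It consists of 12882993–12883008 and 12881737–12881741 on chromosome 3, minus strand. RPL4, whose long arm lines the exit tunnel, carried 776 RPM at nt 47–77 of NM_000968.3. The site was placed so that it ends with the last base of the study’s sequence, 15 nt into the coding region, at 66797126–66797144 and 66795856–66795867 on chromosome 15, minus strand, and 71% of it were C or T. With these placements the sites of RPL21, RPL32 and RPL4 each cross a junction between exons, and the site of RPL26 does not.

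The other 5’UTR sites had fewer reads. RPL17, another protein at the exit tunnel, had 45.9 RPM at nt 63–80 of NM_001199345.1, an isoform that is not the one with the most RPM, and the same value is listed for the readthrough gene RPL17-C18ORF32. RPL13 had 15.8 RPM at nt 57–74 of NM_000977.3. A second transcript of RPL32, NM_001007073.1, had 11.9 RPM at nt 67–84, where the T-to-C value was 1.26% of its usual multiple. In the promoter table of RefSeq (GRCh38.p14) 38 of the 45 genes were matched, and 28 of them (73.7%) had a transcript start at C followed by at least 4 C or T, compared with 5.14% of 27305 genes. Among members with and without a site of at least 1 RPM in either library the counts were 22 of 29 and 6 of 9. RPL4, RPL17 and RPL32 are among the 10 members without these letters at the annotated start, and within 20 nt of the start 37 of the 38 had them, as did 56% of all genes.

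Under growing conditions 12 of the 45 genes (26.7%) had a LARP1 binding site of at least 1 RPM, and in mTOR-inactive conditions 30 (66.7%) had one. Over all genes these shares were 1.27% and 2.51%. The 60S mRNAs are at a high level, and the part of mRNA level in the distance between members and all genes was not tested. With sites, 10 genes were found in both libraries, 2 in growing cells only and 20 after PP242 only. Listing in a single library was also common elsewhere. With sites of any RPM on 1 transcript per gene, 17 of 32 members with at least 1 RPM were listed after PP242 only, and 2 in growing cells only. Of 567 such genes outside both subunits, these were 322 and 142. In mTOR-inactive conditions 14 of the genes had more than 1 site, up to 6 on RPL15, and under growing conditions only RPL9 had more than 1, with 2.

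Summed over 1 transcript per gene, the one with the most RPM, the 60S mRNAs carried 26262 RPM at 22 sites under growing conditions and 51928 RPM at 60 sites in mTOR-inactive conditions. This was 9.90% and 18.3% of the RPM on all mRNAs. The 5 genes with the most reads held 75.6% of the RPM under growing conditions and 43.8% after PP242. The sites that reached 1 RPM were 13 and 54, with medians of 1552 and 604 RPM, so there were more sites after PP242 and their median RPM was lower.

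**Figure D1:**
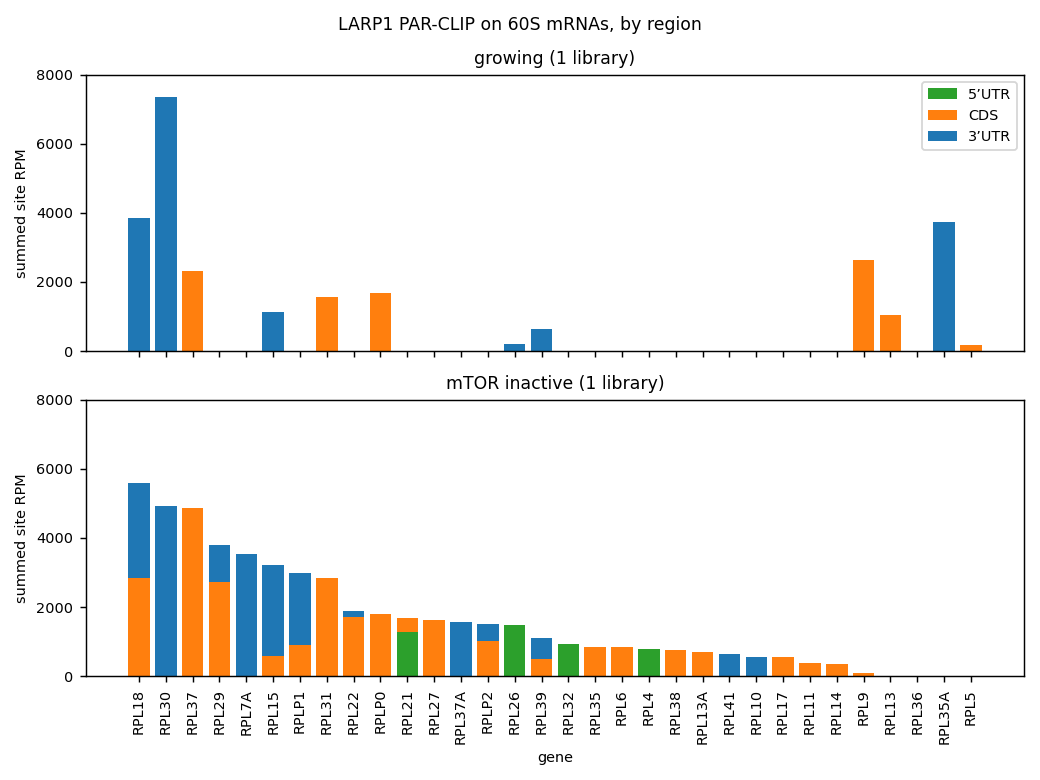
RPM summed over the LARP1 binding sites of each 60S gene (1 transcript per gene) in 1 growing and 1 mTOR-inactive library, stacked by region, for the 32 genes with at least 1 RPM in either library. RPL30 reaches 7337 RPM under growing conditions, and the 5’UTR appears only in the lower plot, on RPL26, RPL21, RPL32 and RPL4 (RPL13, at 15.8 RPM, is too small to see).

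Under growing conditions the 3’UTR held the larger part, 64.3% of the RPM at 11 sites that cover 225 nt, with a mean of 1536 RPM per site. The CDS held 35.7% at 11 sites that cover 255 nt, with a mean of 852 RPM. The 3’UTR share was 50.5% without the 3’UTR site of RPL30, and 58.4% without sites under 10% of the usual T-to-C multiple. Both were not left out together. In mTOR-inactive conditions the CDS held 50.7% at 37 sites (836 nt, mean 712 RPM), the 3’UTR 40.6% at 18 sites (439 nt, mean 1173 RPM) and the 5’UTR 8.61% at 5 sites (119 nt, mean 894 RPM). Every site marked for the 5’UTR was counted there in full, and as placed above those of RPL21 and RPL4 run into the coding region. With RPM normalized to RPKM the order of the regions in growing cells turned, to 54.1% in the CDS and 45.9% in the 3’UTR, and the shares after PP242 were 52.4% and 41.2%. The highest normalized values in growing cells were 15529 at the CDS site of RPL13 and 12806 at the 3’UTR site of RPL15. Both genes have several transcripts among which their mRNA-seq reads were divided, and the weight of these sites in the turn was not tested. Each growing-condition gene had sites of at least 1 RPM in a single region, 6 in the CDS and 6 in the 3’UTR. After PP242, 13 genes had them in the CDS alone, 5 in the 3’UTR alone, 7 in CDS and 3’UTR, 3 in the 5’UTR alone and 2 in 5’UTR and CDS. By any transcript, sites in the CDS were on 22 genes after PP242 and in the 3’UTR on 12, where 0.951% and 1.58% of all genes had one. Under growing conditions 0.512% and 0.723% of all genes had a site in these regions.

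The 3’UTR of RPL30 carried the most reads of any 60S site in growing cells. RPL30, a protein of the L7Ae family of RNA-binding proteins whose yeast relative controls splicing of its own transcript, had 7337 RPM at nt 506–529 of NM_000989.3 under growing conditions and 4478 RPM at the same place after PP242, when a second site at nt 449–484 with 454 RPM was listed too. RPL18 had 3843 RPM at nt 607–628 of NM_000979.2 in growing cells and 2747 RPM after PP242. RPL15 had 1142 RPM at nt 1024–1047 of NM_001253379.1 and then 2242 RPM. These 3 sites were thus read in both libraries within a factor of 4 of each other, 2 of them lower and 1 higher after PP242.

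Other 3’UTR sites were listed in 1 library. RPL35A, a gene mutated in Diamond-Blackfan anemia, had 3728 RPM at nt 414–432 of NM_000996.2 in growing cells and no site after PP242, but its T-to-C value was only 0.0761% of the usual multiple. RPL26 had 210 RPM at nt 537–552 in growing cells and no 3’UTR site after PP242. RPL39, which lines the wall of the exit tunnel, had 631 RPM at nt 239–259 of NM_001000.2 in growing cells, a value also listed for its paralog RPL39L. After PP242 its sites were 2 others in the 3’UTR, of 489 and 140 RPM, and 1 of 489 RPM in the CDS. RPL39 is thus a gene with reads in both libraries and no site of at least 1 RPM at a shared position.

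In the library from PP242-treated cells the 3’UTR of RPL7A, a relative of RPL30 in the L7Ae family, had 3545 RPM at nt 845–868 of NM_000972.2. RPLP1 had 2084 RPM and RPL37A had 1581 RPM in the 3’UTR. RPL29, also known as a heparin-binding protein, had 1089 RPM there. All of these genes had no listed site in growing cells. RPL41, the smallest of the ribosomal proteins, had 651 RPM and RPL10, which joins the subunit late in the cytoplasm, had 570 RPM, and in growing cells the same positions were listed with 0.01 and 0.840 RPM.

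In the CDS, RPL37 had the most reads after PP242, 4867 RPM at nt 167–189 of NM_000997.4, against 2307 RPM at the same position in growing cells. RPL31, at the rim of the exit tunnel, had 1552 RPM at nt 422–443 of NM_000993.4 in growing cells and 2708 RPM after PP242. RPLP0, the protein that anchors the stalk, had 1684 RPM at nt 225–249 of NM_001002.3 and then 1797 RPM. These sites were read in both libraries and differed by 2.11-fold, 1.74-fold and 1.07-fold.

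The CDS of RPL9, RPL13 and RPL5 had fewer or no listed reads after PP242. At nt 66–100 of NM_000661.4 RPL9 had 2457 RPM in growing cells and 35.7 RPM after PP242. Another site of 172 RPM at nt 169–186 was listed in growing cells only, and one of 58.4 RPM at nt 418–435 after PP242 only. RPL13 had 1032 RPM in the CDS at nt 439–462 in growing cells and no CDS site after PP242. RPL5, which together with RPL11 and the 5S RNA forms the particle that binds MDM2, had 166 RPM at nt 745–762 of NM_000969.3 in growing cells only. RPL11 was listed after PP242 only, with 378 RPM at nt 99–119 of NM_000975.3, so the members of the 5S particle each had a site in a different library.

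After PP242 CDS sites were listed on RPL29 with 2719 RPM, on RPL22, which also binds viral small RNAs, with 1712 RPM, on RPL27 with 979 and 638 RPM, and on RPLP2 with 1013 RPM. Lower values were listed for RPLP1 (851 RPM), RPL35 (850 RPM), RPL6 (833 RPM), RPL13A (706 RPM), RPL14 (353 RPM) and RPL36 (13.4 RPM). RPL17 had 3 CDS sites of 217, 216 and 114 RPM, all with the same values on RPL17-C18ORF32. RPL21 had 400 RPM, shared with RPL21P28, and RPL32 had 2.75 RPM, shared with RPS29. All of these genes had no listed site in growing cells.

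RPL18 and RPL15 had CDS sites beside those in the 3’UTR. On RPL18, 1321 RPM at nt 147–168, 1164 RPM at nt 478–501 and 365 RPM at nt 588–605 were listed after PP242, so that CDS and 3’UTR held nearly the same RPM, 2851 and 2747. RPL15 had 326 RPM at nt 931–956 and 227 RPM at nt 744–764 of NM_001253379.1, and 19.0 and 12.6 RPM at 2 further CDS sites. RPL38, which is known for its part in the translation of Hox mRNAs in mice, had 762 RPM at nt 248–268 of NM_000999.3. In growing cells the position of RPL38 was listed with 0.0175 RPM, that of RPL18 at nt 147–168 with 0.037 RPM, and those of RPL15 with 0.006 and 0.0011 RPM.

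Where the 2 lists overlapped, their sites had the same borders. On the 60S transcripts 13 sites of the 2 lists overlapped, on 10 genes, and all 13 had the same first and last nucleotide in both, as did all 457 overlapping pairs of the whole lists. Whether both lists were drawn from a common set of positions is not given in the sources used here, so shared borders do not show that a site was found independently in each library. Of these 13 sites, 6 were over 4-fold higher after PP242, each with under 1 RPM in growing cells, 1 was over 4-fold lower, on RPL9, and 6 were within 4-fold. Of 42 such sites on other mRNAs 42.9% were over 4-fold higher and 40.5% over 4-fold lower after PP242. No fold is given for values under 0.1 RPM. Of the 13 sites of at least 1 RPM in growing cells 7 were in the other list too, and of the 54 after PP242 13 were.

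**Figure D2:**
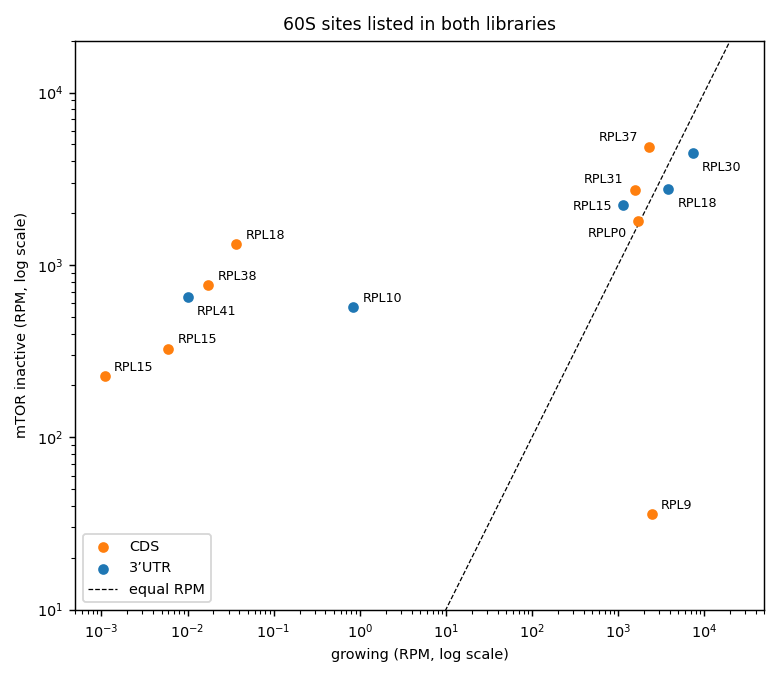
RPM of the 13 LARP1 binding sites on 60S mRNAs that are in both lists, growing against mTOR-inactive library, both on log scales, with the line of equal RPM. A group of 6 sites between 1142 and 7337 RPM lies near the line, 6 sites lie far above it with under 1 RPM in growing cells, and RPL9 lies below it.

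Summed per gene, 32 members had at least 1 RPM in either library. After PP242, 21 of them (65.6%) were at least 4-fold higher or listed in that library only, and 4 (12.5%) were at least 4-fold lower or listed in growing cells only, while 7 were within 4-fold. Over the 627 genes with at least 1 RPM, 65.6% were higher and 30.9% lower, so the share of members that were higher was close to that of all genes. The 7 within 4-fold were RPL15, RPL18, RPL30, RPL31, RPL37, RPL39 and RPLP0, and the 4 that were lower were RPL5, RPL9, RPL13 and RPL35A. Of those 21, 17 had no listed site in growing cells, RPL10, RPL38 and RPL41 had under 1 RPM there, and RPL26 rose from 210 to 1485 RPM, 7.07-fold, with its reads in the 3’UTR before and in the 5’UTR after.

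By role, 7 of 9 proteins at the exit tunnel and its rim had a site after PP242 (RPL4, RPL17, RPL22, RPL26, RPL31, RPL35 and RPL39) and 3 in growing cells (RPL26, RPL31 and RPL39). Of the 4 mRNAs for the stalk, which recruits translation factors, RPLP0, RPLP1 and RPLP2 had sites after PP242, RPLP0 alone had one in growing cells, and RPL12, at the base of the stalk, had none. RPL10 and RPLP0 were listed among the 3 proteins that join late, and RPL24 was not. RPL10A, the protein of the L1 stalk, had no site. The lists are short, and 66.7% of all members had a site after PP242.

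On 13 members no site reached 1 RPM in either library. RPL3, RPL7, RPL8, RPL10A, RPL12, RPL19, RPL23, RPL24, RPL28 and RPL34 had no row in either list, and RPL23A, RPL27A and RPL36A were listed with at most 0.273 RPM. The 10 without a row had a median level of 869 RPKM and ran from RPL28 at 54.0 RPKM to RPL24 at 1359 RPKM, and the median of the 30 genes with a site after PP242 was 599 RPKM. Across the 30 genes the order of RPM and that of RPKM were related by a Spearman’s rho of 0.35, and across the 12 genes with a site in growing cells by -0.20. These are descriptions of 1 library each, over genes whose reads share a library and whose isoforms differ in number.

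**Figure D3:**
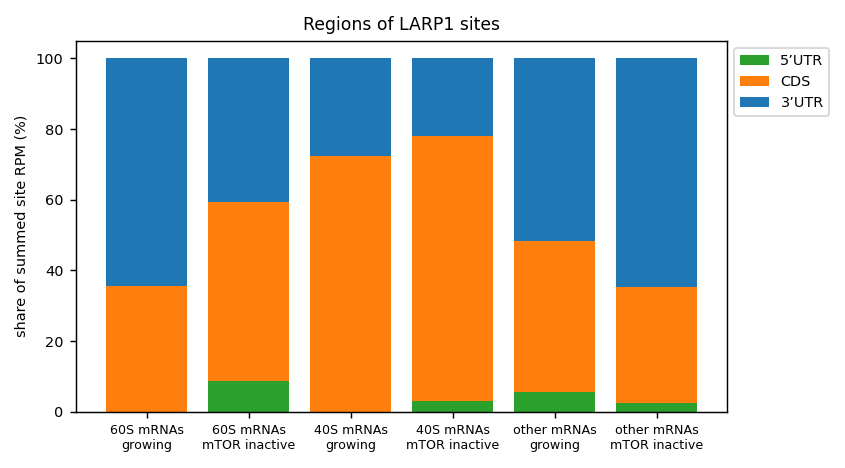
Share of the summed RPM of LARP1 binding sites in 5’UTR, CDS and 3’UTR, in percent, for 60S mRNAs, 40S mRNAs and all other mRNAs, in 1 growing and 1 mTOR-inactive library (1 transcript per gene). The 60S mRNAs have 64.3% in the 3’UTR in growing cells and 40.6% after PP242 (45.9% and 41.2% with RPM normalized to RPKM), and 0 and 8.61% in the 5’UTR.

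The mRNAs for the small (40S) subunit are the most like group. Sites of at least 1 RPM were on 13 of these 32 genes in growing cells and on 26 after PP242. Their sites lay mainly in the CDS in either library, with 72.4% and 74.8% of their RPM, where the 60S mRNAs had 35.7% and 50.7%. In growing cells the 40S share in the CDS rests on 7 sites. With RPM normalized to RPKM the 60S shares in the CDS were 54.1% and 52.4%, and the 40S shares were not computed on that scale. Their 3’UTR share was 27.5% and 22.1%. The RPM summed to 31806 in growing cells and 29378 after PP242, whereas for the 60S mRNAs the sum after PP242 was 51928 against 26262. In the 5’UTR the 40S mRNAs had 15.2 RPM in growing cells and 917 RPM after PP242. Per gene, 67.9% of the 40S mRNAs with at least 1 RPM were higher and 10.7% lower after PP242.

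The mRNA levels of the 45 genes, taken from the transcript with the most RPKM, lay between 54.0 and 1710 RPKM, with a median over genes of 705 RPKM in growing cells and 717 RPKM after PP242. At 1000 RPKM or more were 12 genes, and 3 were under 100 RPKM. RPL39 was the highest, with 1684 and 1663 RPKM in growing cells and 1752 and 1741 RPKM after PP242. RPL37A followed with 1483, 1493, 1553 and 1468 RPKM in the same order, and RPL7A with 1362, 1310, 1388 and 1388 RPKM. RPL24 and RPL27 completed the first 5, with means of 1359 and 1335 RPKM. RPL39 did not overlap RPL37A in any library, and RPL37A did not overlap RPL7A, but RPL7A, RPL24 and RPL27 overlapped. Along the whole order 24 of 44 neighboring pairs overlapped in the range of their 4 libraries.

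**Figure D4:**
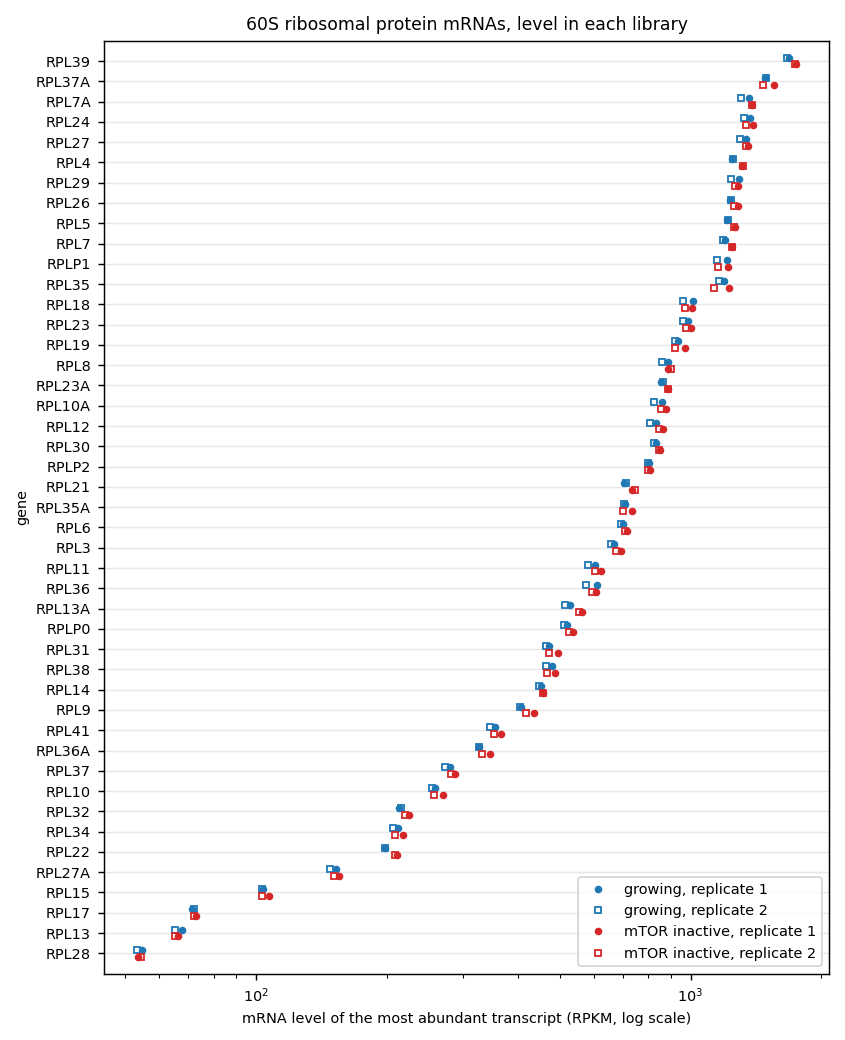
mRNA level of each of the 45 genes (RPKM of its most abundant transcript, log scale) in the 2 growing and 2 mTOR-inactive libraries, ordered by mean level. Levels run from 54.0 RPKM for RPL28 to 1710 RPKM for RPL39, and the libraries of a gene lie close together compared with the distance between genes.

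The lowest were RPL28, with 54.8 and 53.2 RPKM in growing cells and 53.5 and 54.6 RPKM after PP242, RPL13 with a mean of 66.1 RPKM, RPL17 with 72.1 RPKM, RPL15 with 104 RPKM and RPL27A with 152 RPKM. The authors divided reads that match several places evenly among them, and 17 of the 45 genes had several transcripts in the table, so the level of these genes is spread over their isoforms. Summed over the transcripts, RPL15 with 6 reached 528 RPKM and RPL17 with 5 reached 323 RPKM. RPL28 with 5 reached 170 RPKM, and RPL13 with 2 reached 130 RPKM. RPLP1 with 2 transcripts reached 1895 RPKM, above RPL39.

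After PP242 the level of 1 of the 74 transcripts was higher and of 0 lower, in a limma fit on log2(RPKM + 1) over 21014 transcripts with at least 1 RPKM and Benjamini-Hochberg adjustment at 0.05. In this fit 3.48% of all transcripts were higher and 6.45% lower. In simulated data the fit recovered 0 of 200 transcripts with a log2 change of 0.1 and 0 of 200 with 0.2. Only 200 of 21014 transcripts were changed there, fewer than the 3.48% and 6.45% called in the data. Adjustment is stricter with fewer changes, so the simulation does not measure the power of the fit in the data. Some changes of this size were called in the data, and a missing call does not show that a level was unchanged. The transcript called higher was that of RPL13A, a protein that can leave the ribosome to silence mRNAs after interferon-γ. It had 529 and 515 RPKM in growing cells and 562 and 553 RPKM after PP242, so the libraries did not overlap. Its log2 change was 0.10 ± 0.02 (SE, n = 2 per condition), with an adjusted p of 0.0499 in limma. RPKM is relative to the reads of a library, so it does not show a change in total mRNA per cell. The call was lost in 8 of the 12 alternatives run on this transcript, with an adjusted p of up to 0.194 in limma.

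The next by p was RPL4, with 1248 and 1254 RPKM in growing cells and 1312 and 1321 RPKM after PP242, a log2 change of 0.07 ± 0.02 and a limma adjusted p of 0.0532. RPL22 followed, with 199 and 199 RPKM and then 211 and 209 RPKM, a change of 0.08 ± 0.02 and an adjusted p of 0.0643 in limma. For RPL26 the libraries had 1232 and 1239 RPKM and then 1288 and 1261 RPKM, a change of 0.04 ± 0.02 with a limma adjusted p of 0.197. RPL32 had 213 and 216 RPKM and then 225 and 220 RPKM, a change of 0.05 ± 0.02 with a limma adjusted p of 0.177. These 4 did not pass the test, although in each of them both libraries from PP242-treated cells were above both from growing cells.

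The changes were small and mostly of 1 sign. Of the 74 transcripts 70 had a log2 change above 0, with a median of 0.03 and a range from -0.02 to 0.10, where the median of all transcripts was -0.00127 and 49.4% were above 0. The median was 0.02 with 55 of 74 above 0 without mTOR-inactive replicate 1, 0.02 with 58 without growing replicate 2, 0.05 with 69 without mTOR-inactive replicate 2, and 0.05 with 74 without growing replicate 1. In 40 of the 74 transcripts both PP242 libraries were above both growing libraries and in 0 they were below, compared with 28.5% and 30% of all transcripts. At an unadjusted p under 0.05 there were 13 of the 74 transcripts, all higher, compared with 11.9% of all transcripts that were higher at that level. Transcripts of 1 gene share reads, so the 74 are not independent. For a single transcript an exact permutation test could not give a two-sided p under 0.333.

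**Figure D5:**
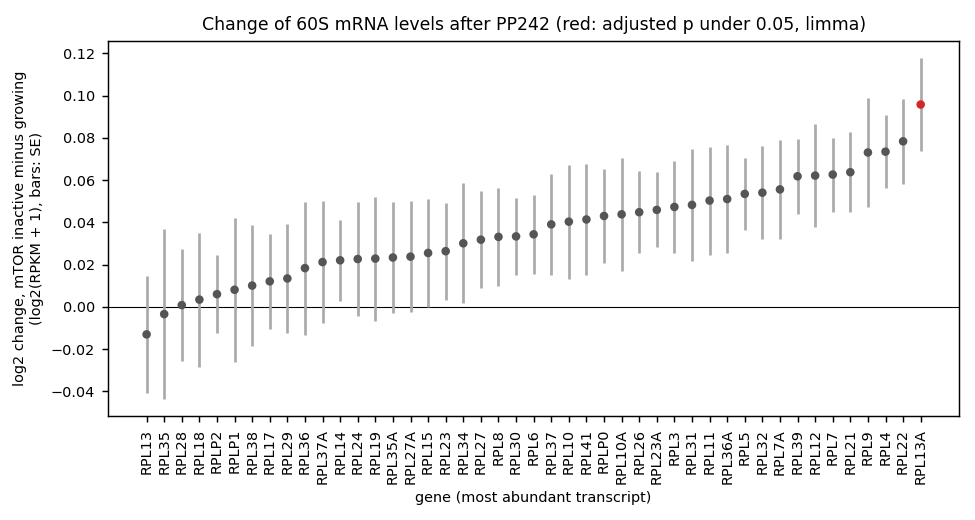
Log2 change of mRNA level, mTOR-inactive minus growing, for the most abundant transcript of each of the 45 genes (points) with its SE (bars, limma, 2 libraries per condition), in order of size. Of 45 changes 43 are above 0, from -0.01 for RPL13 to 0.10 for RPL13A, the single red point.

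Other lists of genes were read from the same fit, and no difference between lists was tested. Of 48 transcripts of 40S genes 1 was called higher, RPS24 with a log2 change of 0.09, and their median was 0.05. Of 53 transcripts of 36 factors that assemble the 60S subunit, 13 were called, all lower, with a median of -0.06. They belong to RRS1, which brings the 5S particle to the early subunit, at 38.7 and 36.8 RPKM in growing cells and 26.4 and 27.0 RPKM after PP242, and to BRIX1, NIP7, GNL2, PPAN, NOP2, MRTO4 and RPF2. For RRS1 the log2 change was -0.48 ± 0.03 with an adjusted p of 0.00163 in limma. Of 75 transcripts of mitochondrial large-subunit proteins 0 were called higher and 9 lower, and the median was -0.08. Of 5 transcripts of paralogs of 60S proteins, RPL22L1 was called, higher by 0.18. In PAR-CLIP the assembly factors with a site of at least 1 RPM were 1 of 36 in growing cells and 3 of 36 after PP242, and for mitochondrial large-subunit proteins 1 of 47 in either library.

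The properties of the sites bear on these values. The 60S sites were 14 to 45 nt long after PP242, with a median of 24 nt, and 15 to 35 nt under growing conditions, with a median of 21.5 nt. The deposited T-to-C column was a fixed multiple of RPM in most sites, and its unit is not described. Of the 60S sites of at least 1 RPM, 12 of 13 in growing cells and 45 of 54 after PP242 were at 90% or more of that multiple. Under 10% of it were RPL35A in growing cells and, after PP242, RPL13A and RPLP2 in the CDS, RPL22 and RPL39 in the 3’UTR, and RPL15 at 385 RPM in the 3’UTR and 19.0 RPM in the CDS. Such sites held 14.2% of the 60S RPM in growing cells and 4.68% after PP242. The site of RPL41 was at 21.9% and the CDS site of RPL29 at 74.6%. Sites listed with the same RPM and length on another named gene were 4 of 22 under growing and 11 of 60 under mTOR-inactive conditions.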

How the data were processed

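LARP1 PAR-CLIP (1 library per condition) and mRNA-seq (2 per condition) were analysed from the deposited tables. The authors removed linkers, used Bowtie to map the reads to GRCh37 transcripts, clustered PAR-CLIP reads and deposited each site in RPM. The deposited lists also hold RPM normalized to the transcript’s RPKM, a ratio, and a T-to-C column, treated as a score. For mRNA-seq the authors kept reads without mismatches, and the deposited table gives RPKM of every library and the mean of each condition. Of 39711 lines 1273 repeats were dropped. Every per-sample column was used.

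Members were taken by the gene names of the table. Left out were 5 unnamed mRNAs that RefSeq assigns to members and 12 noncoding transcripts with a member’s name. The members, lists, tests and alternatives were chosen with earlier results of these data known. Genes named are those with a 5’UTR site of at least 1 RPM, the 5 with the most RPM in all, in CDS and in 3’UTR in each library, those listed in 1 library only with at least 10 RPM, those called by limma, the 5 highest and 5 lowest in level, and RPL26 and RPL32. Any further gene was picked with its values known.

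The test of levels was limma (version 3.58.1, R 4.3.3; eBayes with trend after lmFit) on log2(RPKM + 1), which understates changes of low transcripts, at a mean of at least 1 RPKM. The fit was tested on simulated data with 200 changed transcripts among 21014. Of these 200 it recovered 0 at a log2 change of 0.1, 0 at 0.2, 189 at 0.5 and 199 at 1. False calls were 0, 0, 6 and 8 in the same order, and 0 when no change was added. Adjustment is stricter with so few changed transcripts, so these recoveries do not measure the power of the fit in the data. There, some changes under 0.2 were called, such as RPL22L1 at 0.18. A missing call at a log2 change of 0.2 or less still does not show that a level was unchanged. RPKM values allow no count test. Between the PAR-CLIP libraries a gene was counted as different at 4-fold with at least 1 RPM in the higher. Tables and plots were made in Python 3.11.15 (pandas 2.3.3, numpy 2.4.6, matplotlib 3.10.9). Without read numbers the counting error of a site is unknown. Site sequences come from GRCh37 with GENCODE v44 models, the RefSeq start table and the study’s supplementary sequences.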

Additional observations from a re-analysis of the deposited data

How the results depend on the processing

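The number of 60S transcripts called higher after PP242, 1 as reported, was 0 with a pseudocount of 0.1, without a filter on RPKM, with median scaling and in limma without a trend. It was 2 with a pseudocount of 5, with a mean of at least 10 RPKM and with upper quartile scaling, and 3 genes were called when RPKM was summed over the transcripts of a gene. Leaving out each mRNA-seq library in turn gave 0 calls every time. With the replicate number as a block 4 were called. The labels do not say that a number marks a shared culture or day. Deviations of libraries with the same number had a correlation of 0.04 over 21014 transcripts and of 0.16 over the 6727 with the higher levels, where the 60S transcripts lie, and with 2 pairs it was not settled whether the numbers pair the libraries. No transcript was called lower under any of these alternatives. The median log2 change of the 60S transcripts was 0.03 as reported, 0.04 with median scaling and 0.05 with upper quartile scaling, against 0.01 for all transcripts in both, and between 0.02 and 0.05 when each library was left out in turn. The cause of the lost and gained calls was not tested.

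Among the PAR-CLIP results, 2 moved by over 1.5 times. With no minimum of RPM, 10 genes had a 3’UTR site under growing conditions in place of 6, and with RPM normalized to RPKM the CDS held 54.1% of the growing-condition total in place of 35.7%. This turned the order of the regions, with 45.9% in the 3’UTR, and after PP242 the shares on that scale were 52.4% in the CDS and 41.2% in the 3’UTR. The other counts, shares and sums moved by at most 1.5 times under the alternatives run. At that limit was the number of genes with a 5’UTR site after PP242. It was 4 in place of 6 without sites that have the same RPM and length on another gene. The 5’UTR share was then 6.45% in place of 8.61%. Without the 3’UTR site of RPL30 the growing-condition share of the 3’UTR was 50.5% in place of 64.3%. The limit set by depth is unknown, because read numbers were not at hand and a site that is not listed has no value.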

Other observations

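Relative to mRNA level the order of the 60S sites was another. In the deposited ratio, which is 1000 times RPM over RPKM, the 3’UTR site of RPL15 was highest after PP242, at 24691 on NM_001253379.1, and the CDS sites of RPL37 followed at 17121 and of RPL22 at 8158. Among the 5’UTR sites RPL32 reached 4135, RPL21 1720, RPL26 1165 and RPL4 590, so RPL32, which had fewer reads than RPL26, lay above it on this scale. In growing cells the CDS site of RPL13 had 15529 and the 3’UTR site of RPL15 had 12806. RPL15 and RPL13 have several transcripts among which their reads were divided in mRNA-seq, which lowers the RPKM in the ratio, and the RPM of a site was listed in full on each transcript.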
